A study of Mus musculus with 6 samples.

Results

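The collagen gene family was examined in heart ventricles of mouse embryos, in RNA-seq libraries from embryos with and without Cre-driven deletion of the estrogen-related receptors. Members were the rows of the deposited table whose symbol is Col, a number, the letter a and a number, summed per symbol, which gave 44 genes of 19245 in all and 60 of 30031 transcripts. Both groups were C57BL/6 embryos at embryonic day 17.5 that carried floxed alleles of Esrra and Esrrg, the genes of the estrogen-related receptors alpha and gamma, which are nuclear receptors known for control of mitochondrial genes. The 3 libraries labelled knockout were Cre-positive, with Cre under the Nkx2-5 promoter, which is active in cardiac progenitors and cardiomyocytes, and the 3 control libraries, labelled wild type, were Cre-negative. Each library pooled 2 hearts. Since the controls carried no Cre, an effect of Cre itself cannot be told apart from that of the deletion.

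Collagens are trimers wound from chains of repeated glycine-led triplets, and they are grouped by the structure the trimers build. Fibrillar collagens form the load-bearing fibrils of the interstitium, type IV chains form the sheet under endothelium and around each cardiomyocyte, and fibril-associated collagens sit on the surface of fibrils. Type VI chains form beaded filaments, type VIII and X chains form hexagonal lattices, and transmembrane collagens stay anchored in the cell membrane. In the heart, fibroblasts make most fibrillar collagen, and endothelial and mural cells make much of the type IV collagen.

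Libraries held 12807218 to 32663845 estimated counts over genes, the deepest being labelled knockout replicate 1. Collagens took 0.881%, 0.937% and 0.915% of these counts in control pools, against 1.35%, 1.15% and 1.25% in the labelled knockouts. As a check of the labels, Esrra was at 82.0, 68.9 and 76.4 CPM (counts scaled to library size, with factors from the trimmed mean of M-values) across control pools, against 41.1, 44.0 and 43.7 CPM in the labelled knockouts. Esrrg went against its label, from 79.5 to 83.7 CPM in the controls to 109.8 to 120.2 CPM in the labelled knockouts, so groups are named by their labels throughout. The fall of Esrra (adjusted p 3.67e-07) and the rise of Esrrg (adjusted p 2.22e-06) were both called by edgeR. The counts cover whole transcripts, so whether floxed exons were lost cannot be read from them. Sex also differed between pools: summed Y-linked RNA (Ddx3y, Uty, Kdm5d, Eif2s3y) was at 0.058, 112.9 and 0.171 CPM across control pools, against 315.4, 143.4 and 166.1 CPM in the labelled knockouts. Xist was at 0.924 CPM in labelled knockout replicate 1 and at 1172 to 2427 CPM in the other libraries. The share of reads between genes was 16.4% in labelled knockout replicate 1, 20.5% to 22.4% in the other labelled knockouts and 23.3% to 27.1% in the controls.

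Promoter sequences are shown for chains on which the results below turn. These are the type IV chains that lie head to head, apart from Col4a3, for which no promoter sequence was available. Col11a1 and Col23a1, the fibrillar and transmembrane genes with the lowest adjusted p, were added after their values were seen. RefSeq (GRCm38.p6, the same assembly as mm10) gave windows of 300 bases, from 250 before to 50 after the annotated start, for 35 of the 44 genes. Each is printed 5′ to 3′ on its own gene's strand. Capitals mark CCAAT boxes, GC boxes (GGGCGG) and the estrogen-related receptor half-site core AAGGTCA, on either strand.
Col4a1 (chr8:11312777-11313076, minus strand): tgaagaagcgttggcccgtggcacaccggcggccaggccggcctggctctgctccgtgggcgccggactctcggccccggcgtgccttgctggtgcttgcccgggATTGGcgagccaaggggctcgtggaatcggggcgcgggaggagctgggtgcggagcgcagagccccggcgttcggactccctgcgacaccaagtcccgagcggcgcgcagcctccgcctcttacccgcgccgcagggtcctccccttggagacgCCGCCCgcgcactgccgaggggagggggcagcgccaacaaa
Col4a2 (chr8:11312555-11312854, plus strand): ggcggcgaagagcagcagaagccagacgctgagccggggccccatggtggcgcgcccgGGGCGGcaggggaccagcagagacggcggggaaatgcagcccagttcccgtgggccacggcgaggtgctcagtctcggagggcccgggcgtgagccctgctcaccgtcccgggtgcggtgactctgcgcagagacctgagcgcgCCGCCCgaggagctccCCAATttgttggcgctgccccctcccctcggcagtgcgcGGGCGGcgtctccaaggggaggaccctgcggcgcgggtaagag
Col4a4 (chr1:82586800-82587099, minus strand): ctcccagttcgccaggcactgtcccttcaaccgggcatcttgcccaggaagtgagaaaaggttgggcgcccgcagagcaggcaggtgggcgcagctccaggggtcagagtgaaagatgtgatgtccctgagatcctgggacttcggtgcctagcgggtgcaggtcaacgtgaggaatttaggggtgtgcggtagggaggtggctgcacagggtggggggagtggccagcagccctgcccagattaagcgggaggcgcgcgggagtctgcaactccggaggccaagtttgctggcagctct
Col4a6 (chrX:141474027-141474326, minus strand): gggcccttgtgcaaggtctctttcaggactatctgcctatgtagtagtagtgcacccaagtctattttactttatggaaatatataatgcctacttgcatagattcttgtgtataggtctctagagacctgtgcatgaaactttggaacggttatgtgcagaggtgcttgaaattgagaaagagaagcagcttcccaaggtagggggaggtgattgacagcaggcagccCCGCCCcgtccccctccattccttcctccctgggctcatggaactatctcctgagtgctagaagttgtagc
Col4a5 (chrX:141475169-141475468, plus strand): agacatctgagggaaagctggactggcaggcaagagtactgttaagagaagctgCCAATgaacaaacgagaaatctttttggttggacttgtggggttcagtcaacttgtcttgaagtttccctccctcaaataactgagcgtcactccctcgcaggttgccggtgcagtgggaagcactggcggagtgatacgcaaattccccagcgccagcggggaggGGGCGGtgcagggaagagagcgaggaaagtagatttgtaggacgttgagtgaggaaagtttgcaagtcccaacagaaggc
Col11a1 (chr3:114030290-114030589, plus strand): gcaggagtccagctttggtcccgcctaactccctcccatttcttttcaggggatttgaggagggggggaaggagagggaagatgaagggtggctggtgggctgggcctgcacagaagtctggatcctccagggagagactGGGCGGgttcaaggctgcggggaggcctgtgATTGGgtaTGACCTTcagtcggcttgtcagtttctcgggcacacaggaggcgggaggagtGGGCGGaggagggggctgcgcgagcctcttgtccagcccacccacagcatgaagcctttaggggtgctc
Col23a1 (chr11:51289670-51289969, plus strand): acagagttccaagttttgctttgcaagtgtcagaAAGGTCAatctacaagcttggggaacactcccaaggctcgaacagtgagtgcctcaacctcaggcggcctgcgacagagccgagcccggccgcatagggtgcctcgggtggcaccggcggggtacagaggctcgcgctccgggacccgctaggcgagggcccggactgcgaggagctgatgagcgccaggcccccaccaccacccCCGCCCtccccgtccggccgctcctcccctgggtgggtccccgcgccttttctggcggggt

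The windows of Col4a1 and Col4a2 share 78 bases, since their annotated transcripts start on opposite strands and overlap by 22 bases. The core AAGGTCA stood in windows of 5 of 35 collagens, namely Col7a1, Col9a1, Col11a1, Col23a1 and Col24a1, and in those of 5.38% of 27025 genes. The longer half-site TCAAGGTCA, which contains the core, stood in none of them and in 0.466% of all genes. Of the collagens with the core, Col11a1 and Col23a1 rose in the edgeR test below, and Col7a1, Col9a1 and Col24a1 were not called. The window of Col6a6, the network gene with the lowest adjusted p, held no core. GC boxes stood in 22 of 35 collagens against 38.2% of all genes, CCAAT boxes in 13 against 41.1%, and TATA boxes (TATAAA) in 5 against 15.7%. A match describes letters only and is not evidence of binding.

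Collagen RNA was higher in the libraries labelled knockout. Of the 44 genes, 41 had enough reads to be tested, 38 were higher in the labelled knockouts (51.1% of all tested genes were), 27 rose at an adjusted p under 0.05, 0 fell and 14 were not called (edgeR's quasi-likelihood test, Benjamini-Hochberg over 14290 genes). At an unadjusted p under 0.05, 0 tested collagens were lower, and DESeq2 and limma-voom also called 0 falls. Over all tested genes 22.4% rose and 22% fell. The median log2 fold change was 0.39 over the tested collagens and 0.0077 over all tested genes. Folds of the risers ran from 1.21 to 3.77. At least 2-fold rises were called for Col11a1, Col22a1 and Col19a1, and for 2.65% of all tested genes. Col19a1, which is among the 27, was tested only through the labelled knockouts, the group where it is high, so its call is no support. The labelled knockouts lay above the controls without overlap in 27 of the 41 tested collagens and in 26.8% of all tested genes. In bulk tissue, more cells of a type and more RNA per cell cannot be told apart.

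**Figure D1:**
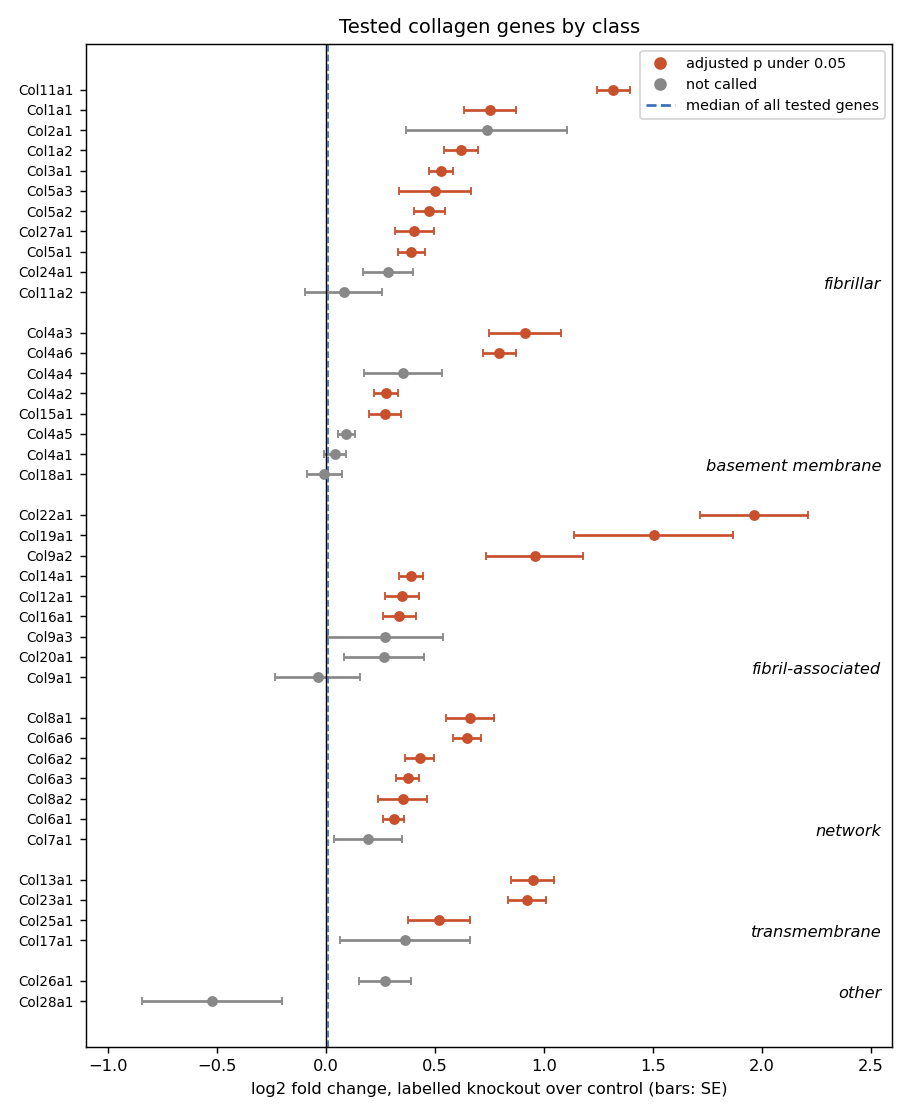
Log2 fold change (labelled knockout over control) with its standard error for the 41 tested collagens, in rows grouped by class, coloured by whether the adjusted p was under 0.05; the dashed line is the median of all tested genes at 0.0077. Nearly all points lie right of 0, and Col22a1, at 1.97, lies farthest out.

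Rises were found in 8 of 11 fibrillar, 4 of 8 basement membrane, 6 of 9 fibril-associated, 6 of 7 tested network and 3 of 4 transmembrane collagens. Medians of the log2 fold change were 0.50, 0.27, 0.35, 0.38 and 0.72 in that order. Neither Col26a1 nor Col28a1, which fit no class, was called, though Col26a1 was without labelled knockout replicate 3 (log2 fold change 0.36, adjusted p 0.0238 by edgeR). The network genes Col6a4, Col6a5 and Col10a1 held 0 to 7 counts per library and were not tested. The rise of 18 of the 27 genes was called under each of 15 alternative settings at the gene level. With the Y-linked level as a covariate the other 9 lost their call, namely Col5a3, Col8a2, Col9a2, Col12a1, Col15a1, Col16a1, Col19a1, Col25a1 and Col27a1. Without control replicates 1 and 3 and labelled knockout replicate 1, the pools of 1 sex, 20 rose.

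Type I and type III collagens are the bulk of cardiac fibrils, and Col3a1 was the most abundant collagen here. Col3a1, the sole chain of type III collagen, stood at 2200, 2375 and 2329 CPM across control pools, against 3549, 3122 and 3285 CPM in the labelled knockouts. Col1a2, a chain of type I collagen, stood at 871.9, 995.1 and 960.9 CPM across control pools, against 1631, 1295 and 1419 CPM in the labelled knockouts. Its partner chain Col1a1 stood at 561.0, 515.0 and 662.6 CPM against 1125, 767.8 and 1036 CPM. In all 3 genes every labelled knockout library was above every control, and replicate 1 was the highest. Log2 fold changes were 0.53 (SE 0.0553) for Col3a1, 0.62 (SE 0.0763) for Col1a2 and 0.75 (SE 0.119) for Col1a1, with adjusted p of 6.25e-06, 2.64e-05 and 0.00022 by edgeR.

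Chains of type V collagen, which starts fibrils and limits their width, also rose. Col5a1 went from 508.5 ± 18.2 to 667.1 ± 63.9 CPM (mean ± SD of 3 libraries, as in later values) and Col5a2 from 418.1 ± 20.8 to 580.3 ± 67.9 CPM, with adjusted p of 0.000225 and 0.000137 by edgeR. The minor chain Col5a3 stood at 6.84, 6.76 and 8.42 CPM across control pools, against 8.38, 10.1 and 13.3 CPM in the labelled knockouts, where the groups overlap. It was called at an adjusted p of 0.0263 by edgeR, and that call was lost in 6 of 15 settings, among them leaving out control replicate 1 or 2 or labelled knockout replicate 3.

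Col11a1, a chain of the fibril-starting type XI collagen best known from cartilage, had the greatest fold among fibrillar chains. It stood at 28.2, 33.4 and 30.7 CPM across control pools, against 76.0, 69.1 and 84.0 CPM in the labelled knockouts. Every labelled knockout library was far above every control. The log2 fold change was 1.32 (SE 0.0777), with an adjusted p of 2.84e-08 by edgeR, and it stayed at 1.17 or above under each alternative. Its partner Col11a2 was not called, at 3.93 ± 0.722 against 4.07 ± 0.726 CPM (adjusted p 0.741 by edgeR). The count ratio of Col11a1 to Col5a1, with which it can share trimers, was 0.058, 0.063 and 0.060 in control pools, against 0.104, 0.115 and 0.125 in the labelled knockouts. Col27a1, also fibrillar, rose from 28.8 ± 3.32 to 37.7 ± 3.75 CPM (adjusted p 0.00263 by edgeR). That call failed in 2 of 15 settings, among them the fit that takes the Y-linked level into account. Across settings the estimate for Col27a1 stayed between 0.20 and 0.46 on the log2 scale. Col24a1, at 9.29 ± 1.08 against 11.1 ± 1.29 CPM, was not called (adjusted p 0.062 by edgeR). It was called without control replicate 2 or labelled knockout replicate 3 (adjusted p 0.0337 and 0.0442).

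**Figure D2:**
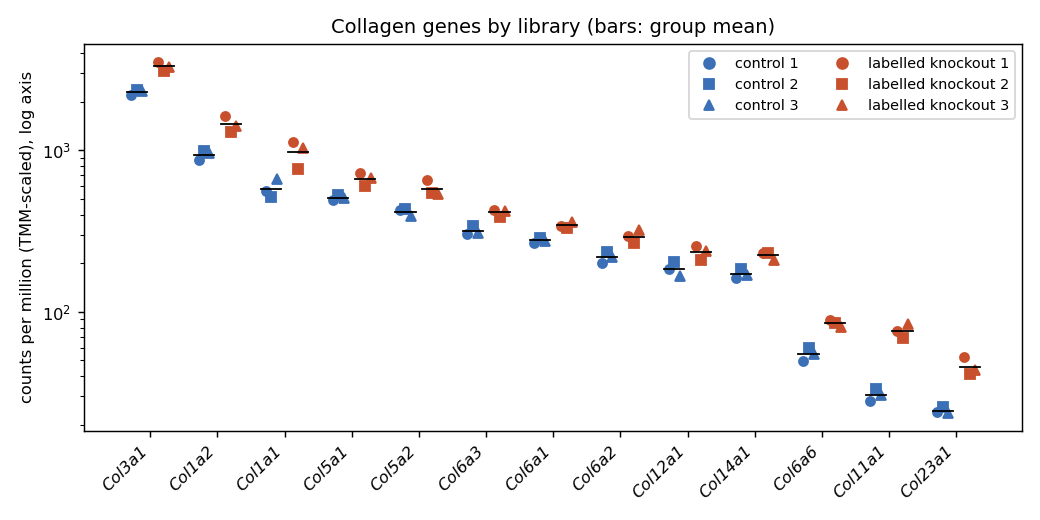
CPM on a log axis for 13 collagens that rose, in each of 3 control (blue) and 3 labelled knockout (orange) libraries, with black bars at group means. The groups are apart in each of these genes, and Col11a1 shows the widest gap, from 30.8 to 76.4 CPM between group means.

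Basement membrane chains divided by member. Type IV genes lie in 3 pairs in the mouse genome, each pair head to head, so that its genes are transcribed away from a shared start region. The gene pairs were Col4a1 and Col4a2 on chromosome 8, Col4a4 and Col4a3 on chromosome 1, with 71 bases between them, and Col4a6 and Col4a5 on chromosome X, with 1342 bases between them (mm10). In each, 1 gene rose and the other was not called, a difference in calls that for Col4a3 and Col4a4 depended on the setting.

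Col4a1 and Col4a2 make the common heart type IV trimer, in which Col4a1 supplies more chains. Col4a1 stood at 1639, 1617 and 1652 CPM across control pools, against 1688, 1582 and 1778 CPM in the labelled knockouts, with overlap. The fitted log2 fold change was 0.04 (SE 0.05), with an adjusted p of 0.549 by edgeR. Col4a2 stood at 699.6, 715.2 and 730.5 CPM across control pools, against 893.7, 792.8 and 912.5 CPM in the labelled knockouts, without overlap. It rose by a log2 fold change of 0.28 (SE 0.0546), with an adjusted p of 0.00117 by edgeR. The count ratio of Col4a1 to Col4a2 was 2.34, 2.26 and 2.26 in control pools, against 1.89, 2.0 and 1.95 in the labelled knockouts. A noncoding Col4a1 transcript, NR_133670, was given 541.1 to 579.6 CPM in control pools, against 567.1 to 617.9 CPM in the labelled knockouts, and is part of the summed Col4a1 level.

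Col4a5 and Col4a6 are X-linked chains of other type IV trimers, the latter found in smooth muscle basement membranes. Col4a6 stood at 44.97, 42.9 and 42.8 CPM across control pools, against 83.9, 75.3 and 67.1 CPM in the labelled knockouts. Col4a5 stood at 314.4, 305.8 and 309.7 CPM against 335.0, 337.6 and 319.4 CPM, without overlap but with a small gap. The log2 fold change was 0.80 (SE 0.074) for Col4a6 (adjusted p 2.09e-06) and 0.09 (SE 0.0393) for Col4a5 (adjusted p 0.073), by edgeR. The ratio of Col4a5 to Col4a6 counts went from 7.12 ± 0.126 to 4.41 ± 0.391. Both genes are on the X chromosome and the pools differed in sex; without the pools of 1 sex the log2 fold change of Col4a6 was 0.73 (adjusted p 0.000187 by edgeR).

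Col4a3 and Col4a4 are low-level chains best known from the kidney filter. Col4a3 stood at 4.0, 4.09 and 4.61 CPM across control pools, against 6.499, 8.04 and 9.83 CPM in the labelled knockouts, and rose by a log2 fold change of 0.91 (SE 0.165) with an adjusted p of 0.00062 by edgeR. Col4a4 stood at 4.93, 3.62 and 4.27 CPM against 4.83, 4.75 and 7.04 CPM, with overlap, and was not called (log2 fold change 0.35, adjusted p 0.131 by edgeR). With counts thinned to the smallest library Col4a4 was called, at 0.53 with an adjusted p of 0.0353, and over all settings its log2 fold change ran from 0.15 to 0.73. The Col4a4 to Col4a3 ratio was 1.014 ± 0.19 in control pools, against 0.684 ± 0.081 in the labelled knockouts.

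**Figure D3:**
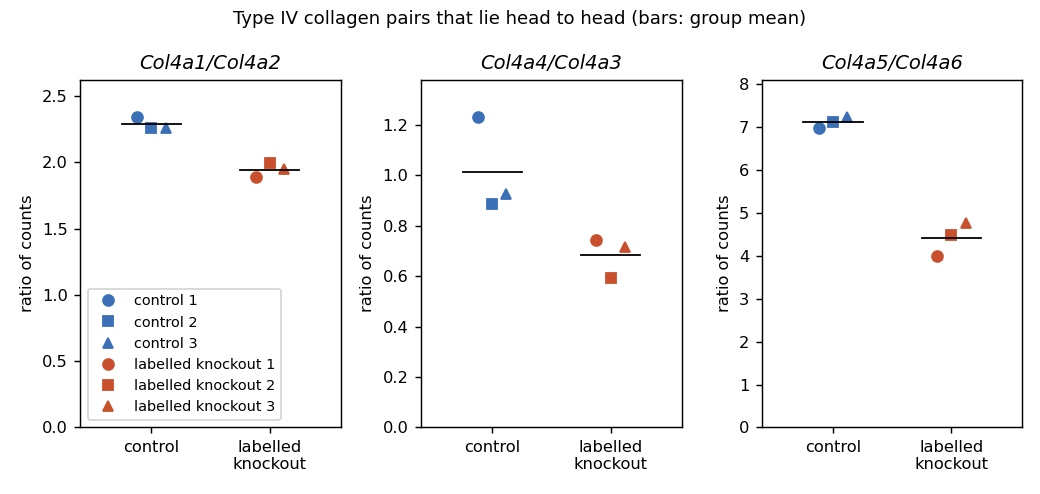
Ratio of counts between the genes of each head-to-head type IV pair, per library, on axes from 0, with black bars at group means. In each panel the 3 labelled knockout libraries lie below the 3 controls, with means of 2.29 and 1.94, 1.014 and 0.684, and 7.12 and 4.41.

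Ratios were compared in 9 gene pairs by an exact two-sided permutation test on the log2 scale, of which 5 were planned and 4, the Col11a1, Col4a4/Col4a3 and Col4a5/Col4a6 ratios, were chosen after the data were seen. With 3 libraries against 3 the smallest possible p is 0.1, so no ratio could pass a threshold of 0.05. In 5 pairs the groups did not overlap and the exact p was 0.1 (0.18 after Benjamini-Hochberg adjustment over the 9), namely the 3 type IV pairs and both Col11a1 ratios. Of these 5, only Col4a1 to Col4a2 was planned. The other 4 were picked with the levels of their genes known, so their lack of overlap is no support. How often other gene pairs lack overlap was not computed. The partner chains of type I collagen kept overlapping ratios, at 0.617 ± 0.089 and 0.671 ± 0.0706 Col1a1 counts per Col1a2 count (exact p 0.5). The exact p was 0.2 for Col6a1 to Col6a2, and 0.3 both for Col5a1 to Col5a2 and for Col3a1 to Col1a1.

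The multiplexins Col15a1 and Col18a1 carry proteoglycan side chains in basement membrane zones, and fragments of both are known to limit vessel growth. Col15a1 went from 103.6 ± 5.37 to 125.2 ± 14.5 CPM (adjusted p 0.00897 by edgeR), but replicate 1 of the labelled knockouts, at 109.4 CPM, lay below control replicate 2, at 109.8 CPM. Col18a1 stood at 226.2, 218.1 and 233.6 CPM across control pools, against 262.5, 200.5 and 209.6 CPM in the labelled knockouts. It was not called (adjusted p 0.953 by edgeR), and without labelled knockout replicate 1 it was called lower, at a log2 fold change of -0.14 and an adjusted p of 0.0285. Neither of its annotated transcripts was called in a test on transcripts.

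**Figure D4:**
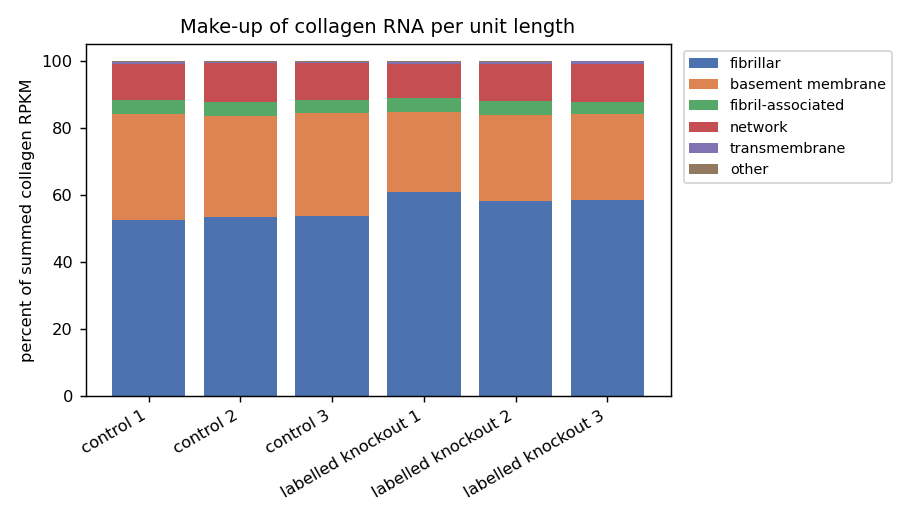
Percent of summed collagen RPKM (reads per kilobase of transcript, scaled to total reads) taken by each class in each library, as stacked bars from 0 to 100. The fibrillar share is 52.5% to 53.8% in control pools, against 58.2% to 60.7% in the labelled knockouts, and the basement membrane share is 29.96% to 31.6% and 23.9% to 25.8%.

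Per unit length, on the authors' RPKM scale, the order of levels in controls was led by Col3a1 at 148.2 ± 9.45, Col4a1 at 88.5 ± 2.25, Col1a2 at 64.7 ± 5.90, Col4a2 at 39.7 ± 1.77 and Col1a1 at 35.0 ± 4.83 RPKM. Col4a2 was above Col1a1 in all 3 controls, by the least in replicate 3, at 41.1 and 40.5 RPKM. In the labelled knockouts Col1a2, at 110.8 ± 18.1 RPKM, was above Col4a1, at 101.2 ± 8.66 RPKM, in all 3 libraries, by the least in replicate 3, at 107.3 and 106.0 RPKM. RPKM levels are scaled to reads of all kinds, reads between genes included, so only shares within a library were compared between groups. Fibrillar chains made up 53.2% ± 0.641 of summed collagen RPKM in controls and 59.1% ± 1.40 in the labelled knockouts. Basement membrane chains made up 30.8% ± 0.827 and 25.2% ± 1.05. Network chains held 11.1% ± 0.364 and 10.9% ± 0.587, ranges that overlap.

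Among fibril-associated collagens, which link fibrils to their surroundings, the abundant chains rose modestly. Col12a1, at 183.7, 204.3 and 166.4 CPM in control pools, stood at 257.0, 208.9 and 237.7 CPM in the labelled knockouts (adjusted p 0.00253 by edgeR). Col14a1 went from 171.1 ± 10.97 to 223.8 ± 13.7 CPM (adjusted p 7.52e-05) and Col16a1 from 64.8 ± 3.62 to 81.2 ± 9.81 CPM (adjusted p 0.00314). Calls were lost with the Y-linked covariate and without the pools of 1 sex for Col12a1 and Col16a1, but not for Col14a1. The greatest folds stood at low levels. Col22a1, known from muscle-tendon junctions, had 13 to 18 counts in each control and 155, 45 and 62 counts in the labelled knockouts, which gave 0.811 to 1.02 and 3.01 to 4.62 CPM. The fitted log2 fold change was 1.97 (SE 0.246), with an adjusted p of 3.08e-05 by edgeR. Col19a1 had 3 to 7 counts per control library and 13 to 31 per labelled knockout, and was called (adjusted p 0.00466 by edgeR), with a fold of uncertain size. Col20a1 stayed at 2.0 ± 0.166 against 2.46 ± 0.24 CPM and was not called (adjusted p 0.265 by edgeR).

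Type IX chains and Col2a1 build cartilage fibrils and were highest in the same library. Col2a1 stood at 5.80, 4.79 and 4.66 CPM across control pools, against 14.1, 5.56 and 4.05 CPM in the labelled knockouts. Col9a2 stood at 8.69, 8.57 and 6.48 CPM against 21.0, 11.1 and 11.9 CPM, and was called (adjusted p 0.0037 by edgeR). Labelled knockout replicate 1 was the highest library for these 2 genes, Col9a1, Col9a3 and Col11a2. For Col11a2 it was barely so, at 4.80 CPM against 4.75 CPM in control replicate 1. Col2a1 (adjusted p 0.125), Col9a1 (0.896) and Col9a3 (0.441) were not called by edgeR, though Col2a1 was called without labelled knockout replicate 3 (log2 fold change 1.03, adjusted p 0.0107). Without labelled knockout replicate 1 Col9a1 was called lower, at -0.42 with an adjusted p of 0.0185. The Col9a2 call held without replicate 1 but was lost in 2 of 15 settings, among them the Y-linked covariate. Over the alternative settings the log2 fold change of Col9a2 ran from 0.43 to 1.10. Exons of Col9a3 share 234 bases with Tcfl5 on the opposite strand, so some of its reads cannot be assigned without strand. Of 7 cartilage markers 4 were tested, 2 rose (Sox9 and Comp) and 0 fell (median log2 fold change 0.44, range -0.016 to 1.16). Over all tested genes 22.4% rose and 22% fell. Matn3 and Hapln1, also on the list, were untested or not called. Sox9, a cartilage transcription factor, stood at 13.1 to 14.5 CPM in control pools, against 18.7 to 22.8 CPM in the labelled knockouts. Comp, a cartilage matrix protein also found in tendon, had a log2 fold change of 1.16 and was highest in labelled knockout replicate 3. The calls of Sox9 and Comp were not checked under the alternative settings. Acan, the cartilage proteoglycan, was not called and was highest in control replicate 2, at 23.7 CPM, and then in labelled knockout replicate 1, at 23.1 CPM, while Matn1 was at 0 to 0.0298 CPM and Cnmd at 0.284 to 0.472 CPM in all libraries. The summed level of these markers was 36.3 to 51.7 CPM in control pools, against 65.1, 53.7 and 45.1 CPM in the labelled knockouts. Its part in these values was not tested. Labelled knockout replicate 1 was the highest library for 27 of the 41 tested collagens. The share over all tested genes was not computed, so this is not read as a trait of collagens. Over all genes with enough reads, chi-square per degree of freedom, a measure of spread that grows with depth, was 9.78 and 9.92 between that library and labelled knockout replicates 2 and 3. It was 3.91 between replicates 2 and 3.

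**Figure D5:**
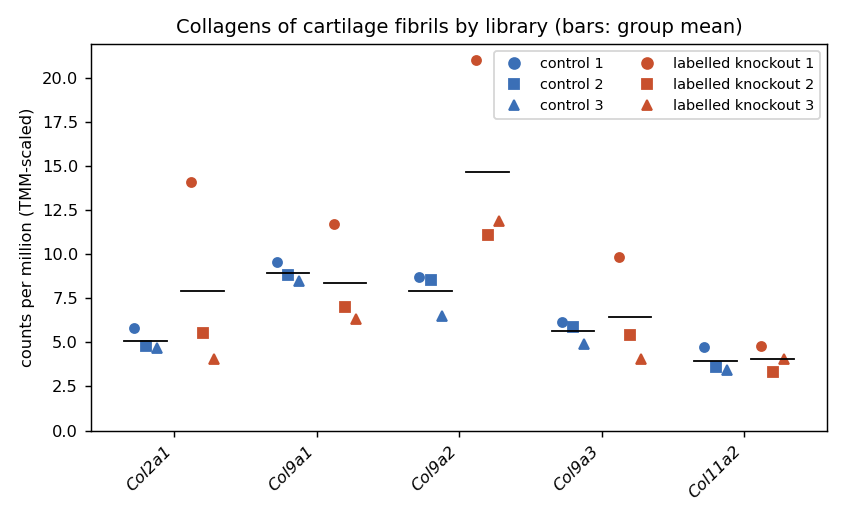
CPM of the cartilage fibril collagens in each library, on an axis from 0, with black bars at group means. Labelled knockout replicate 1 (orange circle) lies above the other libraries in each gene, by the largest ratio for Col2a1, at 14.1 CPM against 4.05 to 5.80 CPM. For Col11a2 the gap is slight, at 4.80 CPM against 4.75 CPM in control replicate 1.

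Network collagens rose in 6 of 7 tested genes. The chains of type VI collagen, which anchors cells to the interstitial matrix, rose: Col6a1 went from 277.0 ± 10.3 to 343.5 ± 17.04 CPM, Col6a2 from 217.4 ± 16.99 to 292.6 ± 27.3 CPM and Col6a3 from 318.5 ± 20.5 to 412.9 ± 20.9 CPM. Adjusted p were 0.000133, 0.000199 and 8.75e-05 by edgeR. Col6a6, an alternative partner of Col6a1 and Col6a2 that can take the place of Col6a3, stood at 49.8, 59.3 and 54.9 CPM across control pools, against 89.2, 85.8 and 81.0 CPM in the labelled knockouts. The log2 fold change of 0.65 (SE 0.0631), with an adjusted p of 3.25e-06 by edgeR, stands beside 0.38 (SE 0.0533) for Col6a3. The lattice-forming Col8a1, made by vascular cells, rose from 6.51 ± 0.442 to 10.2 ± 0.94 CPM (adjusted p 0.000321 by edgeR). Its partner Col8a2 rose from 13.7 ± 1.28 to 17.4 ± 2.61 CPM (adjusted p 0.0218), a call lost in 7 of 15 settings. Col7a1, of anchoring fibrils in skin, stood at 4.15 ± 0.081 against 4.62 ± 0.828 CPM and was not called (adjusted p 0.344).

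Transmembrane collagens, whose ectodomains can be shed, rose in 3 of 4 genes. Col23a1 stood at 23.9, 25.8 and 23.7 CPM across control pools, against 52.6, 41.3 and 43.6 CPM in the labelled knockouts. Col13a1, found at cell junctions, stood at 8.11, 7.94 and 7.56 CPM against 16.1, 15.9 and 13.4 CPM. The groups did not overlap in either gene, with log2 fold changes of 0.92 (SE 0.0879) and 0.95 (SE 0.1) and adjusted p of 2.63e-06 and 6.9e-06 by edgeR. Col25a1, needed in mice for motor nerves to enter muscle, went from 6.82 ± 0.319 to 9.56 ± 1.93 CPM (adjusted p 0.00956 by edgeR). Its call was lost in 4 of 15 settings, among them without labelled knockout replicate 1, with the Y-linked covariate and with thinned counts. Col17a1, of skin hemidesmosomes, stayed at 9 to 29 counts per library and was not called (adjusted p 0.355).

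In the test on transcripts, 55 of 60 collagen transcripts were tested, 23 rose and 0 fell, where 11% of all 21591 transcripts rose and 11.8% fell. Reads that match several transcripts were shared out by estimation, which that test does not take into account. For Col13a1 the transcript NM_007731 rose (log2 fold change 1.02, SE 0.139, adjusted p 0.00213 by edgeR), and NM_001304757, at 1.05 ± 0.719 and 1.24 ± 0.502 CPM, was not called. Both transcripts of Col6a3 rose, at 0.39 (SE 0.056) and 0.36 (SE 0.0808) on the log2 scale, with adjusted p of 0.00273 and 0.0181.

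Enzymes that fold and modify collagen chains in the endoplasmic reticulum mostly rose. Of 22 genes 18 rose and 2 fell (median log2 fold change 0.48). Over all tested genes 22.4% rose and 22% fell, which is also the background for the lists and markers that follow. Plod2, which hydroxylates the telopeptide lysines used in cross-links, had the greatest fold, from 92.2 ± 4.67 to 221.5 ± 6.76 CPM (adjusted p 2.96e-10 by edgeR). P4hb, a subunit of prolyl hydroxylase, rose from 310.7 ± 8.89 to 504.4 ± 24.7 CPM, Fkbp9, a prolyl isomerase, from 197.6 ± 6.66 to 287.7 ± 5.84 CPM, and Colgalt1, which adds galactose to hydroxylysine, from 78.9 ± 1.17 to 124.8 ± 7.14 CPM. Colgalt2 and P4ha3 fell, at 8.13 ± 0.974 to 6.22 ± 0.555 and 19.99 ± 0.544 to 16.9 ± 1.68 CPM, with adjusted p of 0.0165 and 0.0317 by edgeR, and either call was lost in 5 or more of 15 settings.

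Of 15 genes that trim procollagen or cross-link it, 14 were tested, 10 rose and 1 fell (median 0.46). Loxl2, a lysyl oxidase, rose from 320.4 ± 7.89 to 593.8 ± 55.05 CPM, Adamts3, which removes the amino-terminal propeptide, from 19.98 ± 2.13 to 38.5 ± 0.652 CPM, Tgm2, a transglutaminase, from 541.1 ± 11.5 to 722.1 ± 34.4 CPM, and Loxl1 from 37.5 ± 2.19 to 56.4 ± 7.0 CPM. Pcolce, which speeds removal of the other propeptide, fell from 74.1 ± 5.88 to 62.7 ± 3.65 CPM (adjusted p 0.00639 by edgeR), a call lost with the Y-linked covariate and without the pools of 1 sex. Of 15 fibril-binding matrix genes 14 were tested, 12 rose and 0 fell (median 0.50). Fn1, fibronectin, rose from 732.3 ± 30.8 to 1398 ± 212.0 CPM, Ogn, osteoglycin, from 75.3 ± 5.27 to 133.4 ± 9.08 CPM, Aspn, asporin, from 78.0 ± 2.601 to 136.0 ± 11.6 CPM, and Sparc, a collagen chaperone outside the cell, from 818.5 ± 37.3 to 1166 ± 38.1 CPM.

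Of 11 collagen receptors 10 were tested, 4 rose and 3 fell (median 0.24), where 22.4% of all tested genes rose and 22% fell. Ddr2, the discoidin receptor of fibroblasts, rose from 40.1 ± 3.79 to 65.8 ± 1.56 CPM, Itgb1, the shared beta subunit of collagen integrins, from 720.5 ± 12.9 to 1005 ± 35.8 CPM, and Mrc2, an endocytic collagen receptor, from 42.2 ± 2.57 to 58.5 ± 5.57 CPM. Itga1, an alpha subunit, rose from 200.3 ± 12.7 to 226.2 ± 16.7 CPM (adjusted p 0.0272 by edgeR), a call lost without control replicate 1 or 2 or labelled knockout replicate 2 or 3. Itga2, another alpha subunit, fell from 14.8 ± 0.995 to 10.6 ± 0.945 CPM (adjusted p 0.00112), and Adgrg1, an adhesion receptor that binds type III collagen, from 6.10 ± 1.68 to 3.44 ± 0.224 CPM (adjusted p 0.00264). Both calls were lost with the Y-linked covariate. Over the alternative settings the log2 fold change ran from -0.56 to -0.41 for Itga2, and from -1.02 to -0.20 for Adgrg1. Of 14 proteases and inhibitors 12 were tested, 6 rose and 2 fell (median 0.21). The gelatinase Mmp2 rose from 137.2 ± 7.92 to 193.8 ± 12.4 CPM and its inhibitor Timp2 from 107.5 ± 1.97 to 139.5 ± 7.21 CPM, as did the protease inhibitor Reck, from 18.5 ± 1.41 to 29.4 ± 2.62 CPM, and the membrane protease Mmp16, from 16.5 ± 0.994 to 25.5 ± 3.73 CPM. Fap, a serine protease, fell from 6.03 ± 1.007 to 3.65 ± 0.689 CPM, and Timp4 from 1.19 ± 0.361 to 0.428 ± 0.306 CPM, a call lost when any of 4 libraries was left out (control replicates 1 and 2, labelled knockout replicates 2 and 3). Timp4 was tested only through the controls, the group where it is high. Of 13 basement membrane partners 10 rose and 1 fell (median 0.28). Among laminin chains Lamc1 rose from 791.4 ± 22.1 to 1040 ± 14.3 CPM, Lama2 from 233.7 ± 4.88 to 309.4 ± 6.44 CPM, Lama5 from 181.6 ± 5.16 to 247.5 ± 22.3 CPM and Lamb1 from 609.6 ± 22.9 to 764.0 ± 25.5 CPM. Lamb2 fell from 226.0 ± 3.06 to 185.0 ± 6.97 CPM (adjusted p 6.12e-05 by edgeR).

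Markers of the cells that make collagen did not move together. Of 10 fibroblast markers 8 rose and 0 fell, and their summed level was 562.9 to 586.4 CPM in control pools, against 780.3 to 831.9 CPM in the labelled knockouts. Pdgfra, a receptor of cardiac fibroblasts, rose from 107.0 to 112.9 CPM in the controls to 162.9 to 180.2 CPM. The list shares Dcn, Lum, Dpt and Ddr2 with the lists above. All 4 endocardial markers and 3 of 7 epicardial markers also rose, with 0 falls in either list. Of 10 endothelial markers 2 rose and 6 fell, with sums of 1101 to 1161 CPM and 987.8 to 1013 CPM, and of 8 mural markers 1 rose and 4 fell, with sums of 1063 to 1087 CPM and 938.5 to 970.3 CPM. Of 7 cardiomyocyte markers 0 rose and 6 fell, with sums of 103184 to 105441 CPM and 83097 to 92378 CPM, dominated by Ttn. Marker calls, that of Ddr2 aside, were not checked under the alternative settings. These markers moved beside the collagens, and their part in the collagen values was not tested.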

How the data were processed

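RNA-seq of embryonic ventricles was analysed from a deposited table with 1 line per RefSeq transcript. Per the file headers, the authors deposited estimated counts and RPKM for 3 libraries per group; TopHat2 2.0, Partek 6.6, DESeq and mm10 are named in the submitters' processing notes, with roles not given. The deposited count of reads and percent of reads in exons, introns and between genes, per the file headers, served to check libraries. Symbols turned into dates by a spreadsheet (58) were restored. Estimated counts were summed per symbol and rounded to whole numbers. Genes passing filterByExpr (minimum count 10, total 15) were fitted in edgeR 4.0.16 (R 4.3.3) with TMM scaling and the quasi-likelihood test, with no covariate, and Benjamini-Hochberg adjustment over 14290 genes at a threshold of 0.05. DESeq2 1.42.0 and limma 3.58.1 served as alternatives. The code was tested on simulated data. The deposited RPKM were divided by all reliable reads, reads between genes included, so they were used only for levels between genes within a library. Depth was 12807218 to 32663845 counts per library, so that 3 counts correspond to 0.0918 to 0.234 CPM, which covers counting error only. Nothing says how the 2 hearts of a pool were chosen, so p-values measure the spread between pools. The strand used in counting is not given in the sources used here. The members and lists were chosen with earlier results of these data known. Every collagen was accounted for; collagens with adjusted p under 0.05 and a mean of at least 10 CPM in 1 group were described in full, and each list by up to 4 called genes of its main direction and up to 2 of the other. Alternatives were another scaling, DESeq2, limma-voom, no filter, a replicate block, removal of a length trend, the Y-linked level as covariate, leaving out libraries, thinned counts and transcripts.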

Additional observations from a re-analysis of the deposited data

How the results depend on the processing

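Collagen rises numbered 27 and ranged from 18 (Y-linked level as covariate) to 28 across scaling, tool, filter and covariate alternatives, and from 25 to 29 when 1 library was left out. Falls numbered 0, and 0 to 2 when 1 library was left out, the 2 being without labelled knockout replicate 1. Over all genes, 3198 rose and 3150 fell; this became 1648 and 1774 with the Y-linked covariate, which follows genotype in part, and 1787 and 1858 without the 3 pools of 1 sex, where 1 control library is assumed to vary like the labelled knockouts. The median collagen log2 fold change was 0.30 in each of these 2 settings, against 0.39 in the main fit. Removing the length trend gave 2542 rises and 3793 falls over all genes, and 24 rises and 0 falls among collagens. Medians were then 0.29 over the collagens and -0.041 over all tested genes. The cause was not tested. Deviations of same-numbered libraries from their group means correlated at -0.0055, -0.0152 and 0.104, and those of differently numbered libraries at -0.115 to 0.103. With 3 libraries per group this cannot exclude that the numbers pair them. With the replicate block 28 collagens rose and 0 fell. Directions turned for genes that were not called. Without the pools of 1 sex these were Col2a1 (-0.019), Col7a1 (-0.024), Col9a3 (-0.34), Col17a1 (-0.027) and Col24a1 (-0.026), on the log2 scale. With the length trend removed they were Col4a1 (-0.055), Col4a5 (-0.0026) and Col11a2 (-0.020), and with the Y-linked covariate Col17a1 (-0.10) and Col18a1 (0.0034). Leaving out 1 library spanned 0 for Col2a1 (-0.10 to 1.03), Col4a1 (-0.0049 to 0.081), Col9a1 (-0.42 to 0.12), Col9a3 (-0.26 to 0.50), Col11a2 (-0.076 to 0.25) and Col18a1 (-0.14 to 0.063). Fitting transcripts in place of genes gave 2094 genes with a risen transcript. Thinning to the smallest library, chosen after seeing the data, left 25 rises.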

Other observations

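All 4 endocardial markers rose, the median log2 fold change being 0.69, at summed levels of 209.3 to 218.2 CPM in the controls and 331.2 to 385.0 CPM in the labelled knockouts. Of 7 epicardial markers 3 rose and 0 fell, with sums of 139.7 to 152.4 CPM and 169.7 to 185.9 CPM. Of 6 immune markers 1 rose and 1 fell, and of 5 erythroid markers 0 were called by edgeR. Of 5 Schwann and neural crest markers 2 were tested and 0 called by edgeR.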
